A study of Arabidopsis thaliana with 8 samples.

Results

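The chloroplast-encoded genes are the 133 rows of the count tables whose identifier begins with ATCG, out of 32678 rows with an Arabidopsis gene identifier. They were taken by that prefix alone, with no measured value involved. The 8 libraries hold whole-plant RNA of Arabidopsis thaliana, 1 library per combination of line (4) and NaCl level (75 or 0 mM). By their labels, T31-5 and T43-11 made an artificial transcription factor, 3F-VP16, tied there to salinity tolerance. The controls were an empty vector line that made VP16 alone, a viral activation domain, and Col-0, the wild type. The sources used here do not give the promoter of the constructs, the plants behind each library, their age or the length of the salt treatment. Lines served as the replicates of a salt level, so a p-value measures only the spread between these samples.

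The chloroplast keeps a small genome of bacterial ancestry. It encodes core subunits of both photosystems, of the cytochrome complex, of ATP synthase and of an NDH complex, the large subunit of Rubisco, part of the plastid ribosome, and ribosomal and transfer RNAs. Its genes are transcribed in clusters by a bacterial-type polymerase, whose core is plastid-encoded and whose sigma factors are nuclear-encoded, and by a phage-type polymerase from the nucleus. Transcript levels also depend on nuclear-encoded proteins that bind, cut and protect plastid RNA. Most plastid transcripts carry no long poly(A) tail, so a library made by poly(A) selection recovers a small and uneven part of them. The labels say only that standard Illumina preparation was used. Levels are given per library as CPM, reads scaled to the summed gene reads of the library. Because recovery may be uneven among genes, they are compared between libraries for the same gene, never between genes. Such a comparison does not remove differences between libraries in how much plastid RNA the preparation recovered. No combination of line and salt level has a replicate library, and the part of such differences in the chloroplast-encoded values below was not tested.

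Gene reads ranged from 13007480 to 22820814 per library, and a count of 0 allows a level of up to 0.131 to 0.231 CPM. Some libraries did not lie where their labels would place them. Both libraries of T43-11 were nearly equal, with a mean chi-square per gene of 1.42 over all genes with 20 or more reads between them. The same measure was 50.5 in T31-5, 50.5 in the empty vector line and 63.3 in Col-0, each between 75 and 0 mM. T31-5 and the empty vector line at 0 mM formed a second close pair, at 1.44. By this measure unsalted T43-11 stood at 52.2, 47.3 and 81.5 from unsalted T31-5, empty vector and Col-0. From the salted libraries of those lines it stood at 4.35, 5.0 and 21.5, so over all genes it lay nearer to them. An added row of the tables named T31 had 2.94 and 4.88 CPM in T31-5 at 75 and 0 mM, close to 3.12 and 4.44 CPM in the empty vector line, and 27.7 and 26.8 CPM in T43-11. That row did not separate T31-5 from the empty vector line, so the construct of T31-5 was not seen above the control in these files, and the name T31-5 is used below only as the label gives it. The other added row, T43, had 33.6 and 32.5 CPM in T43-11 at 75 and 0 mM. It had 0.0438 CPM in salted T31-5 and 0 CPM in every other library, so this row did separate T43-11. Leaf and root markers were both present, as a whole plant should have, with all 8 of each list above 0 in every library. The 8 leaf markers summed to 41246 to 45923 CPM at 75 mM and to 53927 to 56667 CPM at 0 mM outside T43-11, whose unsalted library had 45577 CPM. The 8 root markers summed to 1593.9 to 2449.9 CPM at 75 mM and to 1193.4 to 1261.7 CPM at 0 mM outside T43-11, whose unsalted library had 2192.2 CPM. Nearly all of the root sum was 1 gene, PYK10. It had 2349.9 and 1149.1 CPM in T31-5 at 75 and 0 mM, where the sums were 2449.9 and 1196.4 CPM. The root sum therefore speaks mainly of that gene. Outside T43-11 the leaf sum was lower with salt and the root sum higher. In T43-11 both sums were nearly level, at 45923 and 45577 CPM for leaf and 2216.3 and 2192.2 CPM for root at 75 and 0 mM. The chloroplast-encoded total of T43-11 was lower with salt, at a ratio of 0.804. The part of these sums in the results below was not tested. In RNA from whole plants, fewer green cells and less plastid RNA per cell cannot be told apart.

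Of the 133 identifiers, 95 had at least 1 read in every library, 20 in some libraries, and 18 had 0 reads in all 8. The filter on low counts kept 73 for testing, and these held 98.7 to 99.4% of the chloroplast-encoded reads. None of the other 60 had more than 14 reads in a library. Among the 73, 17 averaged at least 5 CPM and 21 averaged under 1 CPM. The RefSeq annotation, on the TAIR10.1 build, lists 129 plastid genes, of which 85 encode proteins, 37 transfer RNAs and 7 ribosomal RNAs, under other identifiers. Product notes in that annotation describe 6 of the 133, and the rest are given by identifier alone, with no name or role.

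Reads were concentrated on 4 identifiers. ATCG00950 had 119, 113, 107 and 127 CPM at 75 mM and 177, 148, 202 and 224 CPM at 0 mM in T31-5, T43-11, the empty vector line and Col-0. ATCG01180 had 124, 114, 105 and 128 CPM at 75 mM and 182, 146, 202 and 227 CPM at 0 mM in the same lines. In every line both stood lower at 75 mM, and each stood lowest among the unsalted libraries in T43-11. ATCG00920 had 81.3, 63.1, 59.4 and 73.3 CPM at 75 mM and 108, 85.2, 128 and 152 CPM at 0 mM, again in T31-5, T43-11, the empty vector line and Col-0. ATCG01210 had 81.6, 62.6, 62.6 and 67.3 CPM at 75 mM and 113, 82.4, 126 and 151 CPM at 0 mM in those lines. These also separated by salt within each line, although the salted T31-5 library nearly reached the unsalted T43-11 library. ATCG00950 and ATCG01180 had nearly equal counts, at a ratio of 0.957 to 1.02 over the 8 libraries, and so had ATCG00920 and ATCG01210, at 0.949 to 1.09. Of 128 plastid loci in RefSeq, 31 occur a second time with the same sequence, as the plastid inverted repeat holds copies of its genes, and reads of identical copies cannot be told apart. The identifiers do not say whether these pairs are such copies. Counts of members below take each identifier singly, so the identifiers of a pair may repeat the same evidence.

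Summed over all 133 identifiers, chloroplast-encoded reads were lower with salt in each of the 4 lines. The total was 607, 542, 556 and 646 CPM at 75 mM and 893, 674, 925 and 1068 CPM at 0 mM in T31-5, T43-11, the empty vector line and Col-0. At 0 mM the 3 lines other than T43-11 lay well above every salted library, and T43-11 lay just above the salted Col-0 library, so the salt levels did not overlap. The ratio of 75 to 0 mM was 0.679 in T31-5, 0.804 in T43-11, 0.601 in the empty vector line and 0.605 in Col-0, a mean log2 ratio of -0.58 ± 0.20 (SD, n = 4 lines). The exact 95% Poisson interval of the total in unsalted Col-0 was 1055 to 1082 CPM, and such intervals and the floor cover counting error only. The total was 0.0542 to 0.107% of gene reads. Mitochondrion-encoded reads, from 146 identifiers beginning with ATMG, were 113, 124, 135 and 144 CPM at 75 mM and 143, 128, 140.1 and 144 CPM at 0 mM in T31-5, T43-11, the empty vector line and Col-0. Their ratios were 0.789, 0.975, 0.964 and 1.001 in those lines, so the organelle totals moved by different amounts within each line.

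**Figure D1:**
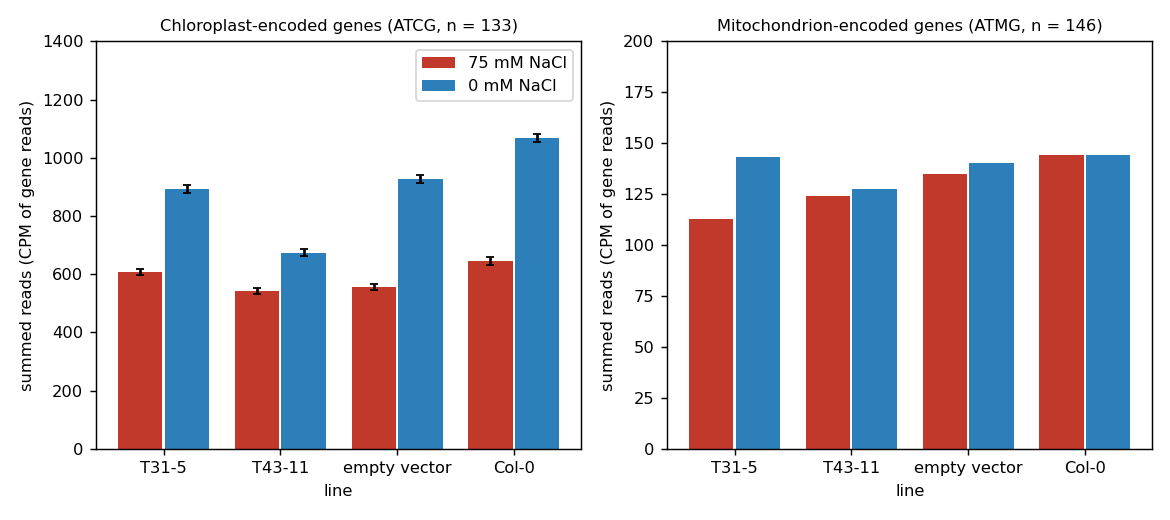
Summed reads on chloroplast-encoded (left) and mitochondrion-encoded (right) genes in each library, in CPM of gene reads, by line and salt level, each bar being 1 library and the error bars on the left exact 95% Poisson intervals. Chloroplast-encoded totals lie between 542 and 646 CPM at 75 mM and between 674 and 1068 CPM at 0 mM.

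The 4 most read identifiers took 67.0, 65.1, 60.2 and 61.2% of the chloroplast-encoded reads at 75 mM and 64.9, 68.4, 71.1 and 70.5% at 0 mM in T31-5, T43-11, the empty vector line and Col-0. Their share was lower with salt in T43-11, the empty vector line and Col-0 and higher with salt in T31-5. The remaining 129 identifiers summed to 200.3, 189, 221 and 251 CPM at 75 mM and 313, 213, 268 and 315 CPM at 0 mM in these lines. Without the 4, the mean log2 ratio was -0.35, an alternative chosen after seeing the data, so on average the 4 most read differed more with salt than the rest did. T31-5 was the exception. There the rest had a ratio of 0.640, against 0.890 in T43-11, 0.826 in the empty vector line and 0.796 in Col-0.

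Across all 4 lines, with line as a block, no chloroplast-encoded gene passed an adjusted p of 0.05 for salt in edgeR's quasi-likelihood test, nor did any of the 20585 genes tested (0% higher and 0% lower). Without adjustment 6006 genes had a p under 0.05, among them 2 members higher and 33 lower, and DESeq2 called 10 members, all lower, where it called 3.76% of all genes higher and 4.94% lower. The median log2 change of the 73 members was -0.54, against 0.02 over all genes. The smallest p belonged to ATCG00280, at -0.99 ± 0.15 (SE; adjusted p = 0.119). It had 4.03, 3.83, 4.63 and 6.30 CPM at 75 mM and 9.25, 5.73, 8.40 and 11.8 CPM at 0 mM in T31-5, T43-11, the empty vector line and Col-0. In each line the salted library was the lower one, and salted Col-0 lay above unsalted T43-11. Next came ATCG00950 at -0.77 ± 0.12, ATCG01180 at -0.77 ± 0.12 and ATCG00920 at -0.85 ± 0.16 (SE), none of which passed.

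T43-11 was then left out, with the near equality of its salted and unsalted libraries already known. The same fit over T31-5, the empty vector line and Col-0 called 25 of the 73 members, 23 lower and 2 higher with salt. That is 31.5% of the members lower and 2.74% higher, where the background over all genes was 15.4% lower and 14.4% higher. The median over members was -0.58, against 0.01 over all genes. Of the 48 members that did not pass, 39 had a fold change below 0 and 9 above, the highest being 0.53. The count moved with the lines used, as did that over all genes. Without the empty vector line 11 members passed, with 4.02% of all genes higher and 5.97% lower. Without T31-5 it was 15 members, with 7.13% of all genes higher and 8.35% lower, and without Col-0 29 members, with 18.9 and 19.6%. The fit takes T31-5 and the empty vector line as separate replicates, although their unsalted libraries were nearly equal. With these lines summed as 1 line, 13 members passed, with 5.9% of all genes higher and 7.59% lower. In all 10 settings that scale to the whole library, 8 members were called each time, namely ATCG00020, ATCG00280, ATCG00470, ATCG00480, ATCG00830, ATCG00950, ATCG01180 and ATCG01310. Without the TMM factors that scale the libraries here, the median of all genes stood at 0.16, against 0.01 with them. The median over members stood at -0.43, against -0.58, so unscaled changes sit higher than those given here.

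**Figure D2:**
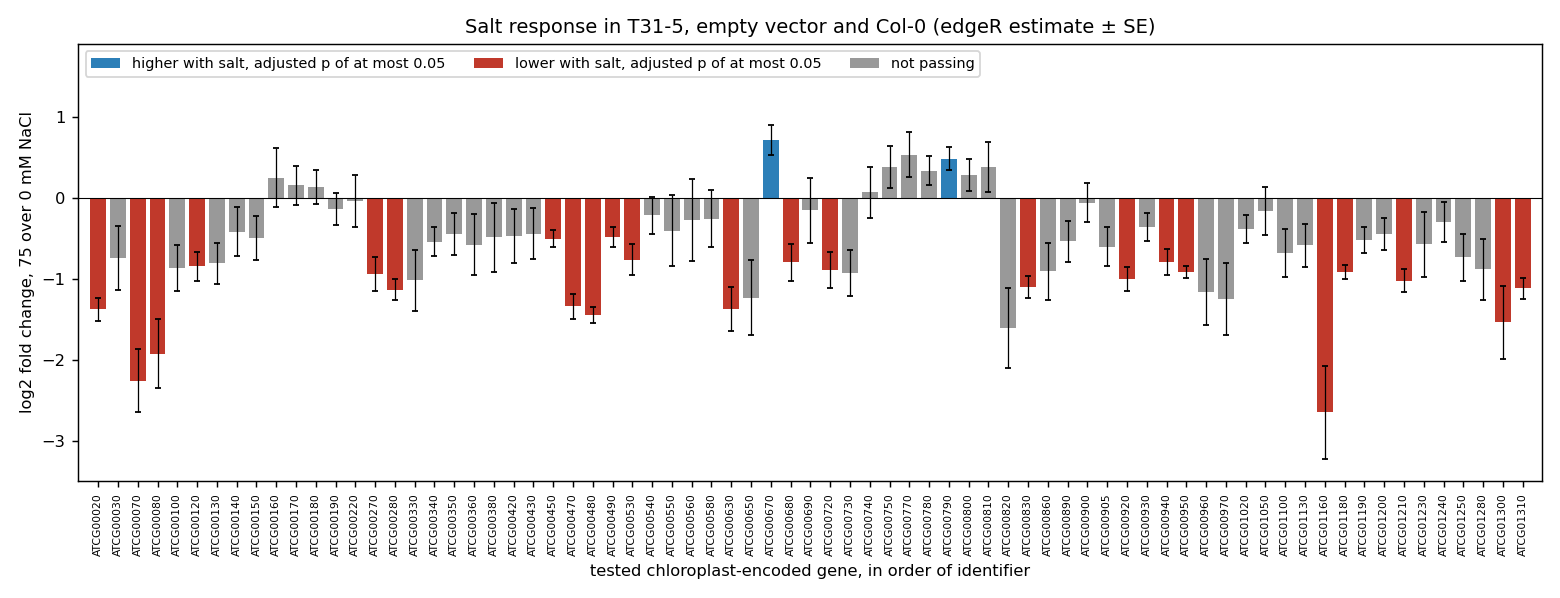
Log2 fold change of 75 over 0 mM NaCl for the 73 tested chloroplast-encoded genes in T31-5, the empty vector line and Col-0, in order of identifier, with bars for the edgeR estimate and error bars for its SE. Of these, 23 are called lower and 2 higher, and the bars above 0 lie mainly between ATCG00160 and ATCG00180 and between ATCG00740 and ATCG00810.

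The member with the smallest p was ATCG00480. It had 7.93, 8.27, 8.26 and 8.84 CPM at 75 mM and 22.1, 9.27, 18.3 and 21.5 CPM at 0 mM in T31-5, T43-11, the empty vector line and Col-0. The salted libraries of all lines and unsalted T43-11 lay close together, and the other unsalted libraries lay well above them. Its log2 change over the 3 lines was -1.45 ± 0.10 (SE; adjusted p = 0.000547). ATCG00470, the neighbouring identifier in this numbering among those tested, had 2.85, 1.98, 2.43 and 2.15 CPM at 75 mM and 6.44, 2.36, 5.41 and 5.19 CPM at 0 mM in T31-5, T43-11, the empty vector line and Col-0. Unsalted T43-11 lay within the salted range, and the change was -1.34 ± 0.16 (SE; adjusted p = 0.00204). ATCG00020 had 14.4, 16.2, 16.5 and 24.5 CPM at 75 mM and 42.5, 19.6, 38.8 and 45.9 CPM at 0 mM in T31-5, T43-11, the empty vector line and Col-0. Salted Col-0 was the highest of the salted libraries and stood above unsalted T43-11, and the change over 3 lines was -1.38 ± 0.14 (SE; adjusted p = 0.00203). For the most read pair the change was -0.91 ± 0.07 (SE; adjusted p = 0.000771) in ATCG00950 and -0.92 ± 0.08 (SE; adjusted p = 0.000934) in ATCG01180. ATCG00920 changed by -1.001 ± 0.15 (SE; adjusted p = 0.00847) and ATCG01210 by -1.02 ± 0.14 (SE; adjusted p = 0.00611), both smaller in relative terms than ATCG00480.

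Ribosomal and membrane proteins were among the described members. ATCG01310, described as ribosomal protein L2 of the plastid large subunit, had 4.34, 3.21, 3.90 and 3.77 CPM at 75 mM and 8.69, 3.64, 7.98 and 6.91 CPM at 0 mM in T31-5, T43-11, the empty vector line and Col-0. Its salted libraries lay near unsalted T43-11 and below the other unsalted ones, and its change over 3 lines was -1.12 ± 0.13 (SE; adjusted p = 0.00215). ATCG00830 had 5.21, 3.69, 4.73 and 3.998 CPM at 75 mM and 9.06, 3.54, 8.94 and 9.09 CPM at 0 mM in the same lines and a change of -1.10 ± 0.13 (SE; adjusted p = 0.00226). Its unsalted T43-11 library was the lowest of the 8. ATCG00530, described as a CemA-like protein of proton extrusion, changed by -0.76 ± 0.19 (SE; adjusted p = 0.0283) and lost its call in 4 of the 10 settings. ATCG00750, described as ribosomal protein S11 of the small subunit, had a change of 0.38 ± 0.26 (SE; adjusted p = 0.303) and did not pass. ATCG00430, described as a photosystem II protein G in the note of a nuclear gene for a respiratory complex subunit, had -0.44 ± 0.32 (SE; adjusted p = 0.329) and did not pass. ATCG00660, described as ribosomal protein L20, had too few reads to be tested.

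Some calls rested on few reads. ATCG01160 had 0.175, 0.425, 0.184 and 0 CPM at 75 mM and 0.598, 0.589, 1.12 and 0.603 CPM at 0 mM in T31-5, T43-11, the empty vector line and Col-0, and ATCG00070 had 0.219, 0.284, 0.275 and 0.231 CPM at 75 mM and 1.196, 0.482, 0.856 and 1.21 CPM at 0 mM in those lines. Both were under 3 CPM in every library, and their log2 changes of -2.65 and -2.26 were the lowest of the 73. ATCG01160 had 0 reads in salted Col-0, which allows up to 0.231 CPM, so its fitted change depends on how the fit treats 0. The other members called lower were ATCG00080, ATCG01300, ATCG00630, ATCG00270, ATCG00720, ATCG00120, ATCG00680 and ATCG00940, with changes between -1.93 in ATCG00080 and -0.79 in ATCG00940. Of these, ATCG01300 and ATCG00080 also had few reads, 3 to 14 and 2 to 20 per library. ATCG01300 was called in only 3 of the 10 settings and ATCG00680 in only 4. Among members with more reads, ATCG00450 had 17.1, 16.1, 15.2 and 17.1 CPM at 75 mM and 20.2, 15.3, 23.3 and 19.8 CPM at 0 mM in T31-5, T43-11, the empty vector line and Col-0. ATCG00490 had 9.82, 8.55, 12.3 and 13.3 CPM at 75 mM and 15.4, 10.7, 13.7 and 15.3 CPM at 0 mM in the same lines. Their changes were small, at -0.50 ± 0.10 (SE; adjusted p = 0.0143) and -0.49 ± 0.13 (SE; adjusted p = 0.0312), and ATCG00490 was called in only 4 of the 10 settings.

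The members that rose were ATCG00670 and ATCG00790. ATCG00670 is described as the plastid-encoded ClpP, a proteolytic subunit of the Clp protease that turns over proteins of the stroma. It had 6.66, 7.42, 6.61 and 10.6 CPM at 75 mM and 4.92, 7.29, 3.32 and 4.73 CPM at 0 mM in T31-5, T43-11, the empty vector line and Col-0. In T31-5, the empty vector line and Col-0 each salted library was higher than the unsalted one, whereas the T43-11 libraries were almost level and both within the salted range. The change over 3 lines was 0.71 ± 0.18 (SE; adjusted p = 0.0299). ATCG00790 had 7.84, 7.37, 7.48 and 9.38 CPM at 75 mM and 5.98, 6.16, 4.71 and 5.19 CPM at 0 mM in T31-5, T43-11, the empty vector line and Col-0. Every salted library lay above every unsalted one, T43-11 included, and the change over 3 lines was 0.48 ± 0.15 (SE; adjusted p = 0.0487). Neither call held in DESeq2, without the empty vector line, with that line and T31-5 summed, or without line as a block. The call of ATCG00790 was also lost without Col-0 and without T31-5. It held in 4 of the 10 settings, against 6 for ATCG00670.

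**Figure D3:**
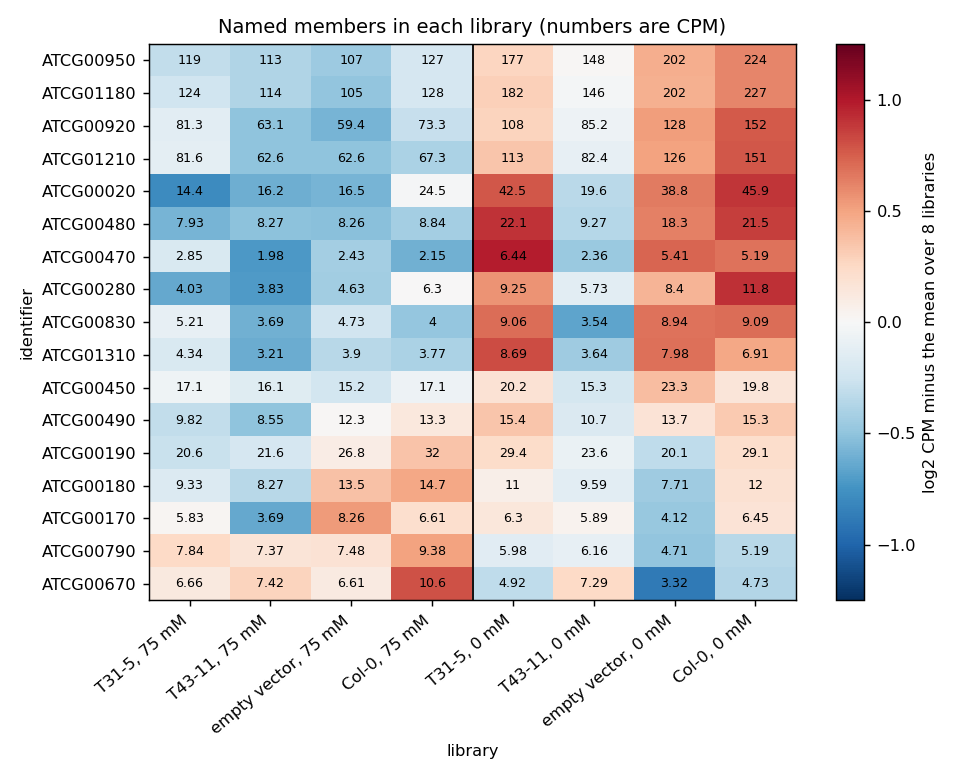
Level of 17 chloroplast-encoded genes in each of the 8 libraries, with the salted libraries left of the line and the unsalted ones right of it, coloured by log2 CPM minus the mean of the gene over libraries and with the CPM printed in each cell. Most rows are blue at 75 mM and red at 0 mM outside T43-11, whose unsalted column is paler, and the rows of ATCG00670 and ATCG00790 run the other way.

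Since the total itself moved, each member was also tested against it, with the summed chloroplast-encoded reads as library size in the same 3-line fit. Relative to that total, 15 members were higher with salt, 6 lower and 52 did not pass. The 4 most read identifiers held 60.2 to 71.1% of that total, so a change relative to it is mainly one relative to them. On this scale 83.9% of all genes were called higher and 1.34% lower, because the median of all genes stood at 0.83, so the calls speak only of the members among themselves. Higher relative to the total were ATCG00670 (1.53), ATCG00770 (1.35), ATCG00790 (1.301), ATCG00810 (1.198), ATCG00750 (1.19), ATCG00780 (1.15), ATCG00800 (1.10) and ATCG00740 (0.88), as log2 changes. So were ATCG00160 (1.06), ATCG00170 (0.97) and ATCG00180 (0.95), and also ATCG00900, ATCG00540, ATCG00490 and ATCG00450. Lower relative to the total were ATCG01160 (-1.85), ATCG00070 (-1.46), ATCG00080 (-1.12), ATCG00480 (-0.63), ATCG00020 (-0.56) and ATCG00470 (-0.53). ATCG00450 and ATCG00490 were thus lower per gene read and higher per chloroplast-encoded read, both with salt.

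Many of the members higher relative to the total lay in runs of neighbouring identifiers, and locus numbers run along the genome. The run ATCG00740 to ATCG00810, with 8 identifiers, took 11.0, 11.5, 10.9 and 10.2% of the reads outside the 4 most read identifiers at 75 mM and 5.90, 9.49, 5.68 and 5.28% at 0 mM in T31-5, T43-11, the empty vector line and Col-0. All salted shares lay above all unsalted ones, and unsalted T43-11 lay nearest to the salted ones. The run ATCG00170 to ATCG00190 holds 3 identifiers. It took 17.9, 17.7, 22.0 and 21.2% at 75 mM and 14.9, 18.4, 11.9 and 15.1% at 0 mM in the same lines. Here salt and share moved together in T31-5, the empty vector line and Col-0, and unsalted T43-11 lay within the salted range. ATCG00470 and ATCG00480 together took 5.38, 5.41, 4.84 and 4.38% at 75 mM and 9.11, 5.46, 8.84 and 8.46% at 0 mM in T31-5, T43-11, the empty vector line and Col-0. ATCG00020 took 7.18, 8.56, 7.45 and 9.78% at 75 mM and 13.6, 9.21, 14.5 and 14.6% at 0 mM in those lines. Both of these shares were lower with salt outside T43-11, with no overlap among those 6 libraries. The runs were chosen after their values were seen, and the shares are described without a test.

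**Figure D4:**
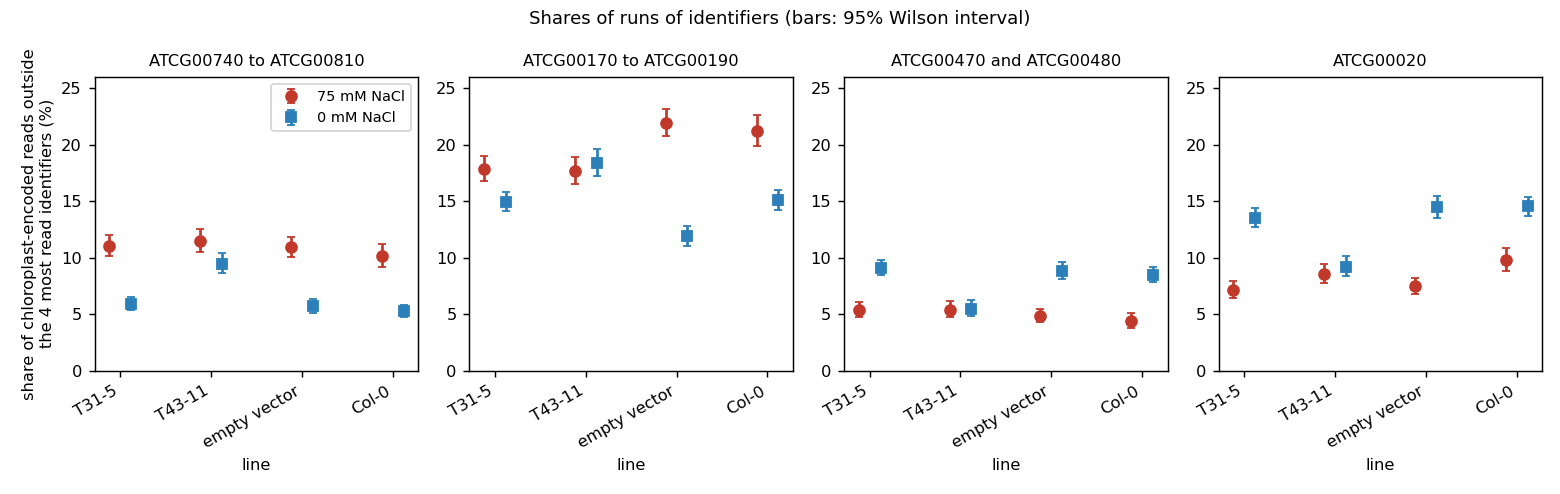
Share of chloroplast-encoded reads outside the 4 most read identifiers taken by each run of identifiers, in %, by line and salt level, each point being 1 library with its 95% Wilson interval for counting error. The run ATCG00740 to ATCG00810 lies between 10.2 and 11.5% at 75 mM and between 5.28 and 9.49% at 0 mM, while ATCG00020 lies lower with salt outside T43-11.

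The largest contributor to the run ATCG00170 to ATCG00190 was ATCG00190, which did not pass relative to the total (0.68, adjusted p = 0.0751), while the called neighbour ATCG00160 lies outside the run. It had 20.6, 21.6, 26.8 and 32.0 CPM at 75 mM and 29.4, 23.6, 20.1 and 29.1 CPM at 0 mM in T31-5, T43-11, the empty vector line and Col-0. Salt went with a lower level in T31-5 and T43-11 and with a higher one in the empty vector line and Col-0. Over 3 lines the change was -0.14 ± 0.20 (SE; adjusted p = 0.63), and its sign turned without T31-5 and without scaling factors. ATCG00180 had 9.33, 8.27, 13.5 and 14.7 CPM at 75 mM and 11.0, 9.59, 7.71 and 12.01 CPM at 0 mM in T31-5, T43-11, the empty vector line and Col-0. It was lower with salt in T31-5 and T43-11 and higher with salt in the empty vector line and Col-0 too, with a change of 0.13 ± 0.21 (SE; adjusted p = 0.665) that turned negative without the empty vector line. ATCG00170 had 5.83, 3.69, 8.26 and 6.61 CPM at 75 mM and 6.30, 5.89, 4.12 and 6.45 CPM at 0 mM in T31-5, T43-11, the empty vector line and Col-0, with salt going with a higher level in the empty vector line and barely so in Col-0.

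Within single lines, the median log2 ratio of 75 to 0 mM over the 73 members was -0.59 in T31-5, -0.25 in T43-11, -0.32 in the empty vector line and -0.50 in Col-0. The members below 0 numbered 61 in T31-5, 56 in T43-11, 46 in the empty vector line and 57 in Col-0. Over all tested genes the share below 0 was 32.2, 50.3, 34.7 and 38.2% in the same lines. Each ratio sets 1 library against 1 and has no replicate check. The 23 members called lower over 3 lines had a median ratio of -0.24 in T43-11, which that fit did not use, beside -0.25 over all 73 members there. Of the 23, 16 were below 0 in T43-11.

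**Figure D5:**
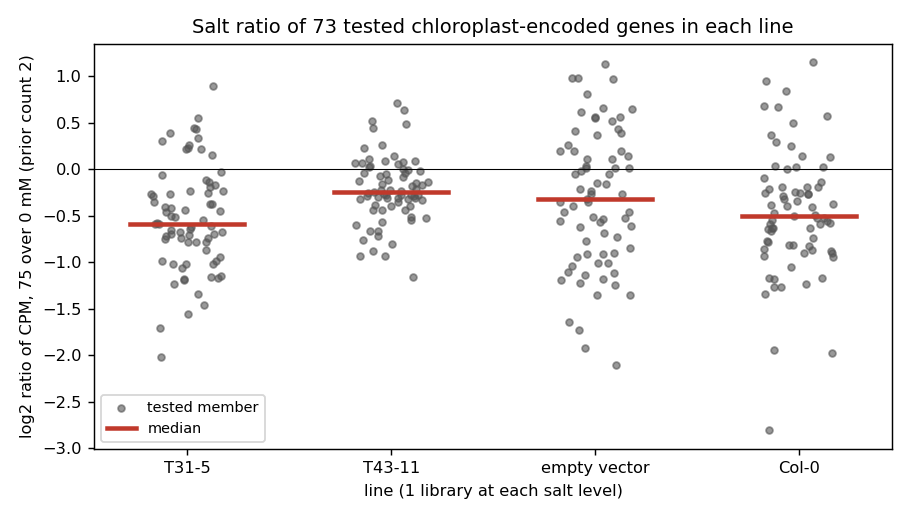
Log2 ratio of CPM at 75 over 0 mM NaCl, with a prior count of 2, for the 73 tested chloroplast-encoded genes in each line, each point being 1 gene and each bar the median. The medians lie between -0.59 in T31-5 and -0.25 in T43-11, and the points spread least in T43-11.

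The unsalted T43-11 library set this line apart, over all genes as well as in the members. In all 23 members called lower over 3 lines it lay below each of the other unsalted libraries, and in both members called higher it lay above each of them. Because the fit chose members with high or low unsalted values in those lines, this is a description. Over all 73 members it was the lowest unsalted library in 40 (54.8%), against 23.3% of all genes tested. The difference between the salt response of T43-11 and that of the other 3 lines passed in 1 member, ATCG00480, at 1.27 ± 0.22 (SE; adjusted p = 0.0446), where T43-11 differed less between 75 and 0 mM than the other lines did. T43-11 is 1 line with 1 library at each salt level, so this SE and p rest on the spread of the other lines and assume that it varies like them. Over all genes 1.33% were called higher and 1.1% lower in this comparison. Without adjustment 3926 of the 20585 genes tested had a p under 0.05, and 12 of the 73 members. All 12 had a higher 75 to 0 mM ratio in T43-11 than in the other lines. Among them were ATCG00020 at 1.09 ± 0.26 (SE; adjusted p = 0.105), ATCG00830 at 1.15 ± 0.30 (SE; adjusted p = 0.115), ATCG00950 at 0.51 ± 0.15 (SE; adjusted p = 0.143) and ATCG01180 at 0.55 ± 0.17 (SE; adjusted p = 0.151). ATCG00480 itself lost its call without the empty vector line, without T31-5, with these lines summed as 1 line, in DESeq2 and without scaling factors.

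The close pairs of libraries were less alike in their chloroplast-encoded genes than over all genes. Between 75 and 0 mM in T43-11 the mean chi-square was 6.43 over 61 members with at least 20 reads, against 1.42 over all genes. Without the 4 most read identifiers it was 1.78 over 57 members. Between T31-5 and the empty vector line at 0 mM it was 4.37 over 70 members and 3.08 over 66 without those 4, against 1.44 over all genes. The statistic grows with the number of reads, and the difference between members and other genes was not tested.

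Each salt level also allows the 3F-VP16 lines to be compared with the controls, with 2 lines a class. These fits used all 8 libraries without a term for line. Their spread was thus pooled over both salt levels, with the libraries of a line taken as independent. T31-5 counts as a 3F-VP16 line by its label alone, since its T31 row was level with that of the empty vector line and their unsalted libraries were nearly equal. At 75 mM the total was 607 and 542 CPM in T31-5 and T43-11, against 556 and 646 CPM in the empty vector line and Col-0, and the classes overlapped. No member and none of the 20585 genes passed in edgeR (0% higher, 0% lower). Without adjustment 732 genes had a p under 0.05, with 0 members higher and 3 lower, and DESeq2 called 9 genes in each direction, none of them a member. The median over members was -0.19, against -0.00207 over all genes. ATCG00180 was lowest in p, with 9.33 and 8.27 CPM in T31-5 and T43-11, against 13.5 and 14.7 CPM in the empty vector line and Col-0. Its classes did not overlap, and the change was -0.72 ± 0.25 (SE; adjusted p = 0.999). ATCG00140 (-0.96 ± 0.38), ATCG00330 (-1.09 ± 0.44) and ATCG00490 (-0.52 ± 0.22, each ± SE) followed and did not pass.

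At 0 mM the total was 893 and 674 CPM in T31-5 and T43-11, against 925 and 1068 CPM in the empty vector line and Col-0. T43-11 lay below both controls by a wide margin, and T31-5 lay close to the empty vector line, its near-equal library. Again no member and no gene passed in edgeR (0% higher, 0% lower), DESeq2 called 0, and 1092 genes had an unadjusted p under 0.05, with 0 members higher and 4 lower. Those 4 were the most read identifiers. ATCG00920 had 108 and 85.2 CPM in T31-5 and T43-11, against 128 and 152 CPM in the empty vector line and Col-0. Its change was -0.63 ± 0.21 (SE; adjusted p = 0.587), beside -0.61 in ATCG01210, -0.49 in ATCG00950 and -0.49 in ATCG01180. The median over members was -0.29, against 0.02 over all genes. Without T31-5, which leaves T43-11 as the only 3F-VP16 line and assumes that it varies like the other groups, 132 genes were higher and 41 lower, with 0 members among them.

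Nuclear genes for the machinery that makes and handles plastid RNA were read from the same 3-line salt fit. Of 21 genes for the plastid polymerases, sigma factors and associated proteins, 4 were higher with salt, 7 lower and 10 did not pass, with a median of -0.03, where 14.4% of all genes were higher and 15.4% lower. SIGE, a sigma factor that directs the plastid-encoded polymerase, fell by 1.06 ± 0.06 on the log2 scale (SE; adjusted p = 0.000383). SIGA fell by 0.57 ± 0.06 and SIG2 by 0.52 ± 0.06, both sigma factors. The sigma factors did not all fall. SIG4 rose by 0.69 ± 0.11 (SE; adjusted p = 0.00818), and SIGC (-0.11) and SIGF (-0.03) did not pass. FSD2, an iron superoxide dismutase tied to the plastid nucleoid, rose by 0.82 ± 0.09. SIGE had 49.9, 45.4, 53.1 and 64.6 CPM at 75 mM and 93.2, 49.9, 95.1 and 128 CPM at 0 mM in T31-5, T43-11, the empty vector line and Col-0. Unsalted T43-11 lay within the range of the salted libraries, below the other unsalted ones. Of 17 genes for chloroplast RNA binding, processing and decay, 2 were higher, 12 lower and 3 did not pass, with a median of -0.40, in the same fit with its 14.4% of all genes higher and 15.4% lower. HCF173, a factor for translation of a photosystem II core protein, fell by 0.90 ± 0.06, HCF152, a processing factor, by 0.62 ± 0.06, and AT5G08720 by 0.74 ± 0.06. The ribonuclease J gene emb2746 rose by 0.69 ± 0.07. Leaf markers, also nuclear genes for chloroplast proteins, were 1 higher and 7 lower of 8, and root markers 4 higher and 0 lower of 8. No gene of these lists passed in the 4-line fit. Their part in the chloroplast-encoded values was not tested.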

How the data were processed

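Per the labels, whole-plant RNA in RNAlater went into standard Illumina libraries. The authors deposited raw read counts per gene for each of 8 libraries, made with TopHat2 2.0.5 and HTSeq on TAIR10, per the submitters' processing notes. The HTSeq version, annotation release, counting mode, use of strand and any poly(A) selection were not given in these sources. Reads of overlapping, antisense or duplicated genes therefore cannot be told apart. Summary rows (2.49 to 2.60% of reads) and 2 added rows stayed out of library sizes and tests.

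Counts were tested with edgeR 4.0.16 in R 4.3.3 (robust quasi-likelihood test on TMM-scaled libraries, Benjamini-Hochberg over 20585 genes, threshold 0.05) after a filter of 0.468 CPM, the equal of 10 counts in the median library, in at least 2 libraries; the steps were tested on simulated data. The salt fits had line as a block, since each line gave both salt levels. DESeq2 1.42.0, other scalings, no filter and each line left out were tried. CPM use the sum of gene rows. Python 3.11.15 made the descriptions. Named members were the 12 with the highest mean CPM, up to 5 each way with the smallest p among those passing, or the 4 with the smallest p where few passed, and those described in RefSeq notes. Members outside that rule were named after their values were seen. The members, lists and tests were chosen with earlier results of these data known. Classes by gene symbol could not be applied and the promoter search was not run, because the identifiers are not paired with plastid gene names in the tables used.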

Additional observations from a re-analysis of the deposited data

Results flagged for a closer look

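Among 38 groups of 4 libraries at 1 salt level, 2 had a library far from the other three, where chance flags about 1 in 20. ATCG00330 stood at 1.179 CPM in T43-11 at 0 mM and ATCG00830 at 3.536 CPM in the same library, each the lowest of the unsalted libraries. The salt response of ATCG00480 in T43-11 differed from that of the other 3 lines by 1.27 on the log2 scale (edgeR, adjusted p = 0.0446), a test of the difference itself. T43-11 is 1 line with 1 library at each salt level, so the p rests on the spread of the other lines. Its unsalted library lay at 9.27 CPM, near the salted ones.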

How the results depend on the processing

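Of 301 fold changes of named members recomputed under an alternative, 253 kept their direction and their side of the threshold, 31 lost a call, 11 gained one and 6 changed sign. In the 4-line salt fit the members passing numbered 0, but 12 with library size set to the chloroplast-encoded sum (10 higher, where 78.1% of all genes were higher), 10 in DESeq2 and 0 to 25 with a line left out, the 25 being without T43-11. In the 3-line fit they numbered 25, but 13 with T31-5 and the empty vector line summed as 1 line and 11 to 29 with a line left out. For the difference of T43-11 they numbered 1, but 0 without scaling factors, 2 on the chloroplast-encoded sum, 0 in DESeq2, 0 with the summed lines and 0 to 3 with a line left out. Without line as a block (no replicate block) 0 members passed over 4 lines and 25 over 3 lines, of which 21 were the same members. The mean log2 ratio of the total was -0.35 without the 4 most read identifiers, an alternative chosen after seeing the data, and -0.68 with TMM-scaled CPM. Sign changes in the 3-line fit were ATCG00180 at -0.13 without the empty vector line (up to 0.41 with another line left out), ATCG00190 at 0.0079 without scaling factors, 0.68 on the chloroplast-encoded sum and 0.14 without T31-5 (down to -0.34 with another line left out), and ATCG00450 at 0.31 and ATCG00490 at 0.33 on that sum. On that sum the median of all genes moves by construction; for the rest the cause was not tested. The total without ribosomal and transfer RNA rows was not run. Depth was lowest for the 21 tested members under 1 CPM.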
